A study of Mus musculus with 60 samples.

Results

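A set of 528 H3K27me3 regions carried a called peak in both independent H3WT lists and in none of the H3R2C or H3R26C lists. The cells were C3H 10T1/2, mesenchymal progenitors of the mouse. They were chosen by the peak calls of these 6 lists, after overlapping or touching peaks of H3WT, H3R2C, H3R8C and H3R26C had been merged into 36272 regions. Of the 12159 regions with a peak in both H3WT lists, 4.34% were lost in this sense, and the other 11631 serve below as comparison regions. The lost regions spanned 2.17 Mb of the 133.7 Mb covered by all regions of both H3WT lists and held 1.04% of their H3WT signal.

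CUT&RUN reads out the DNA that an antibody-bound nuclease cuts free from nuclei. It was run with anti-H3K27me3 and with anti-HA, which recognises the tag of the introduced histone. All cells carried a lentiviral transgene, under the EF1 promoter and selected with puromycin, for histone H3.1 with C-terminal HA and FLAG tags. The transgene was wild type (H3WT) or had an arginine of the N-terminal tail replaced by cysteine (H3R2C, H3R8C, H3R17C or H3R26C). Endogenous H3 remained in all of them, the sources did not describe the lines as single clones, and no age or time point was given. Of the 3 labelled replicates of a group, 2 had identical peak lists, which were counted as 1 library, so that each group had 2 independent libraries. The study describes its CUT&RUN replicates as biological, which does not explain the identical lists. Of marker genes, 0 of 12 mesenchymal, 0 of 4 endothelial, 0 of 4 epithelial, 3 of 6 blood and 4 of 6 neural ones (Neurod1, Neurog1, Olig2 and Sox1) had a start site at a region of both H3WT lists, which does not set mesenchymal cells apart from endothelial or epithelial ones. No marker had its start site at a lost region.

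H3K27me3 is set by Polycomb Repressive Complex 2 (PRC2) and is found at silent developmental genes, where it often fills wide domains over CpG-rich promoters. Weaker coverage by the mark also occurs between genes and over inactive chromatin. In peak lists such as these, a region without a peak is one whose signal did not pass the level of that list, and the signal below that level is not listed.

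To show where in the genome these regions lay, sequence from the 300 bases at the point of highest H3WT signal is given for the strongest regions, together with 3 of the promoters that lay wholly inside a lost region. Sequences are from RefSeq (GRCm38.p6, the same build as the mm10 coordinates of the peaks). Every CG dinucleotide is in capitals and all other bases are in lower case. Windows are on the forward strand and promoters, from 250 bases before to 50 after a gene start, on the strand of the gene. The strongest region of all, in an intron of the zinc finger homeobox gene Zfhx3, had its window at chr8:108146101-108146400.
Zfhx3 intron window: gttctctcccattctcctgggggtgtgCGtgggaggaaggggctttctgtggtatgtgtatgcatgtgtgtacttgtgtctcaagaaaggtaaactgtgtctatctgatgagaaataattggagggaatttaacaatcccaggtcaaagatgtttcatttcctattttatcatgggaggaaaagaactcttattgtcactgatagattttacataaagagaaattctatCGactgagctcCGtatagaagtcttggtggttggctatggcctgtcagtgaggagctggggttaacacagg
Gpr26 neighbourhood, chr7:131885701-131886000, kept in H3R8C: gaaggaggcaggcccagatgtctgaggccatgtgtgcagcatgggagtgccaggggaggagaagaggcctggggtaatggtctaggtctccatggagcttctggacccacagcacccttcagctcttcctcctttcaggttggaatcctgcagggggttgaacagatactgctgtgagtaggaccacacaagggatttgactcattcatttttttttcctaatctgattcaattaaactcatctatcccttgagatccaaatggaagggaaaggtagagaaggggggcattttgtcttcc
Igsf9b neighbourhood, chr9:27245376-27245675, also lost in H3R8C: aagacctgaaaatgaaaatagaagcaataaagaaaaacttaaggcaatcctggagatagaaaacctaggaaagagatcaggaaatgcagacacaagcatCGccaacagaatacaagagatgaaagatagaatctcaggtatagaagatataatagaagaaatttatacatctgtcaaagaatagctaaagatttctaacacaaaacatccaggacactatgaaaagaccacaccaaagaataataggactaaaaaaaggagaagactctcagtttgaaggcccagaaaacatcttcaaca
Dmrt2 neighbourhood, chr19:25710226-25710525, also lost in H3R8C: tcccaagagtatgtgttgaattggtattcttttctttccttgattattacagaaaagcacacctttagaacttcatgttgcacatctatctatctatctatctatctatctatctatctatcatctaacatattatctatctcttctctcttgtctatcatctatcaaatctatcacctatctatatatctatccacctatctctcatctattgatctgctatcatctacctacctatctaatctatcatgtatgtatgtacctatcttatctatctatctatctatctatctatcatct
B4galnt4 promoter, chr7:141060728-141061027, kept in H3R8C: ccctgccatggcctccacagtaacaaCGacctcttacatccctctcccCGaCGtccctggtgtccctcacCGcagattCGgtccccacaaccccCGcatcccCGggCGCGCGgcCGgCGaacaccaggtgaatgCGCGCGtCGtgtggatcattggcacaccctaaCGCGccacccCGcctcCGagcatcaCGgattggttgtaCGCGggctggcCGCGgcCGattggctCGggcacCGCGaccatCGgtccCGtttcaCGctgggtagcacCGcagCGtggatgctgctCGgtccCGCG
Drd4 promoter, chr7:141291768-141292067, kept in H3R8C: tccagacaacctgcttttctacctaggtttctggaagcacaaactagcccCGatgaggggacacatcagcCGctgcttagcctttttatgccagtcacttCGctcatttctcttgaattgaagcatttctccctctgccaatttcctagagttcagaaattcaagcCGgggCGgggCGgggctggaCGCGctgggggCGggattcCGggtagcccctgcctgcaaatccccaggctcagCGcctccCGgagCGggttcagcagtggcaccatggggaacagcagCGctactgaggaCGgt
Fam170b promoter, chr14:32833712-32834011, also lost in H3R8C: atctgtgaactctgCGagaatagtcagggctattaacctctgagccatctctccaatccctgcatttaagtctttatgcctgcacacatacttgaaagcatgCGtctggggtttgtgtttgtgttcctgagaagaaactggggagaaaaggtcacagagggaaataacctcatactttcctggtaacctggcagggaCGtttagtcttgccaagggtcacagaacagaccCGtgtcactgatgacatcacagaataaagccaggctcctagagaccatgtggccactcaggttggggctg

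The 4 windows held between 0 and 3 CG dinucleotides, whereas the B4galnt4 promoter held 37, the Drd4 promoter 15 and the Fam170b promoter 4. CG dinucleotides were counted as the letters CG, which read the same on both strands. In the Igsf9b and Dmrt2 windows, 74.7% and 69.0% of bases were soft-masked as repeats, against 16.3% in the Gpr26 window. Across whole regions, the median masked share was 21.4% for lost and 21.9% for comparison regions. It was 22.8% in lost regions kept in both H3R8C lists and 19.1% in those in neither, so these windows do not stand for their classes. Over all lost regions the median window held 2 CG dinucleotides, as did the median window of the comparison regions, and 3.03% against 2.91% of windows held 10 or more. The median GC content of whole regions was 41.9% for lost and 43.2% for comparison regions, with 7.72 and 8.77 CG dinucleotides per kb. RefSeq promoter windows of 16 protein-coding genes lay wholly inside a lost region, and 12 of these genes had a promoter with 10 or more CG dinucleotides. Of all 32851 promoters in the RefSeq table, 43.5% held 10 or more and 94.6% held at least 1. The first count is of genes and the second of single promoters. Promoters inside comparison regions were not counted, so no trait of lost regions is read from these values.

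Lost regions were narrow and had low signal in H3WT. Their median width was 3.75 kb (range 1.2 to 12.35 kb), against 8.35 kb for comparison regions. For each library, the total signal of a region was divided by the median over the 5589 regions with a peak in all 8 lists, so that a scaled signal of 1 is that of a typical shared region. The mean scaled signal of the 2 H3WT libraries had a median of 0.222 (range 0.149 to 0.936) at lost regions and 0.535 at comparison regions. In 487 of the 528 regions (92.2%) each H3WT list had a single peak, compared with 59.3% of comparison regions. The 2 H3WT libraries differed by a median of 26.7% of their mean at a lost region. Merging used the peaks of all 8 lists. H3R2C and H3R26C peaks could therefore widen or join comparison regions, whereas the rule bars them from lost regions. Part of the difference in width and in single peaks is thus set by the rule. Since the rule also used H3WT peaks, width and signal are descriptions and were not tested.

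The lowest signal in a list shows what a block had to reach to be called. On the scaled measure, this level was 0.153 and 0.177 in the H3R2C lists of replicates 1 and 2 and of replicate 3, and 0.136 and 0.195 in those of H3R26C. In H3WT the levels were 0.146 and 0.148, and in H3R8C 0.125 and 0.132. The replicate 3 lists of both mutants thus had higher levels than the H3WT and H3R8C lists. Of the 528 lost regions, 175 (33.1%) had a mean H3WT signal at or below the highest of these mutant levels, so that the same signal could have gone without a peak in 1 mutant list. The other 353 regions lay above it, 137 by more than 1.5 times and 58 (11%) by more than 2 times. Among comparison regions, 63.5% were above it by more than 2 times. The median ratio of H3WT signal to that level was 1.14 and the highest was 4.79. These ratios compare with a level and are no measured fold change. How far the calling level set the choice of regions was not tested beyond these counts.

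**Figure D1:**
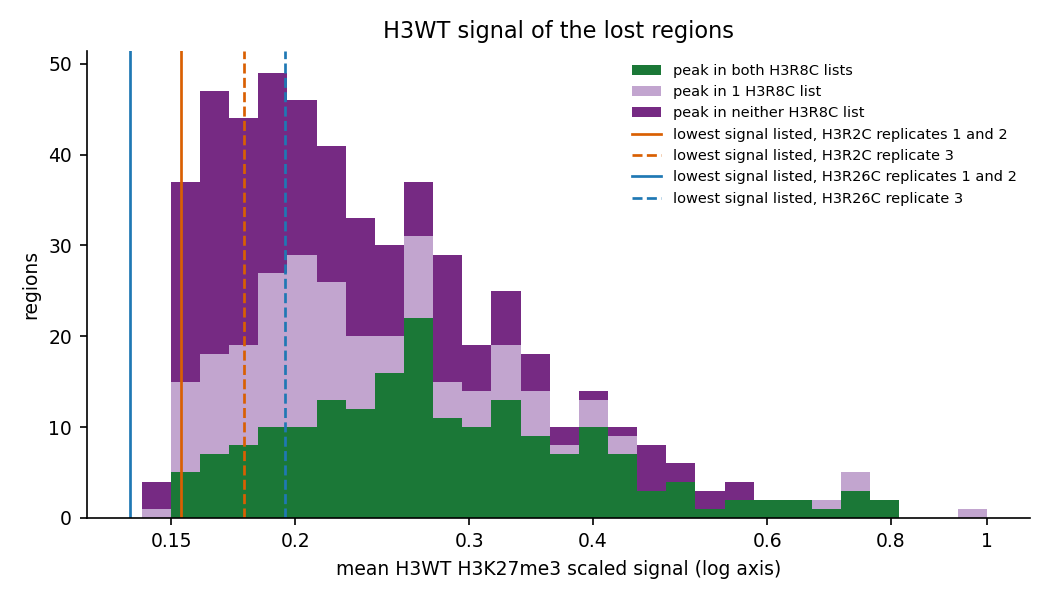
Mean H3WT H3K27me3 scaled signal (x axis, log) of the 528 lost regions, as stacked counts of regions (y axis) by H3R8C class, with vertical lines at the lowest signal listed in each H3R2C and H3R26C library. Most regions stand close to the lines, with a median of 0.222, and the regions kept in both H3R8C lists (median 0.27) reach further right than those in neither (median 0.2).

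Split into deciles by H3WT signal, the regions of both H3WT lists were lost less often with each step up. In the weakest decile, 201 of 1216 regions (16.5%) were lost in H3R2C and H3R26C, and in the next decile 139 (11.4%). The fifth decile had 31 (2.55%), the eighth decile 1, and the strongest 2 deciles had 0. Counted without regard to signal, 1030 regions of both H3WT lists had a peak in exactly 1 of the 4 mutant lists, 2406 in 2, 2200 in 3 and 5995 (49.3%) in all 4. Of the 1030 regions with 1 mutant peak, 585 had it in the H3R26C list of replicates 1 and 2 and 258 in the H3R2C list of replicates 1 and 2, against 77 and 110 in the replicate 3 lists.

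At the edge of the rule, the 3 weakest members were a 1.5 kb region near H2-M10.5 on chromosome 17 and 2.2 kb regions in Unc79 and Atp8a2, with H3WT signals of 0.147 to 0.15 in each library. Just outside stood 3 regions whose single mutant peak, in the H3R26C list of replicates 1 and 2, was at the lowest signal of that list (0.136). These were a region at chr1:69707201-69709800 with H3WT signals of 0.263 and 0.225, a region at chr5:136859601-136864450 with 0.179 and 0.559, and the region at the start of Rhox2h, a reproductive homeobox gene on chromosome X, with 0.151 and 0.288.

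The number of lost regions depended on the lists used. Without the H3WT list of replicates 1 and 2 the rule gave 1399 regions, and without that of replicate 3 it gave 2265. Leaving out the first H3R2C list gave 805 regions and leaving out the first H3R26C list gave 1154. When the rule was applied to the lists of replicates 1 and 2 alone, it chose 2607 regions, which could then be examined in the replicate 3 lists. There a peak was found at 27.6% of them in H3WT, 6.56% in H3R2C, 10.1% in H3R26C and 28.1% in H3R8C. The same shares over all 16529 regions with a peak in the H3WT list used were 73.6%, 55.7%, 58.0% and 71.6%. In reverse, 3064 regions chosen in the replicate 3 lists had a peak in the lists of replicates 1 and 2 at 54.1% in H3WT, 29.3% in H3R2C, 39.9% in H3R26C and 44.8% in H3R8C. Over all 15162 regions with a peak in that H3WT list, the shares were 80.2%, 70.9%, 76.6% and 73.9%. The H3WT share stood above both mutant shares each way, among the chosen regions as among all of them.

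The question of whether H3R8C keeps these regions was examined next, since its lists took no part in the choice other than in the merging. A peak in both H3R8C lists was present at 190 lost regions (36.0%, exact 95% binomial interval 31.9 to 40.2%), in 1 list at 132 (25%) and in neither at 206 (39.0%). Of the comparison regions, 80.7% were kept in both H3R8C lists and 8.76% in neither. Over all regions of both H3WT lists, 10.1% had no H3R8C peak. The interval covers counting error only and treats regions as separate draws. The 132 intermediate regions were divided between the H3R8C libraries, with 74 in the list of replicates 1 and 2 and 58 in that of replicate 3.

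These shares have to be read beside the signal. In the weakest decile of H3WT signal, 18.9% of lost and 43.0% of comparison regions had a peak in both H3R8C lists. In the third decile the shares were 52.3% of 86 lost regions and 64.9% of comparison regions, and in the fifth decile 61.3% of 31 and 81.2%. Lost regions therefore stood below comparison regions of like H3WT signal in each of these deciles, although the gap was smaller than over all regions. Comparison regions were also wider there, with median widths of 4.3, 5.3 and 6.85 kb against 2.8, 4.175 and 5.95 kb for lost regions. They so had more room for an overlap, and the shares were not matched for width. Median H3WT signal was 0.2 in regions kept in neither H3R8C list, 0.209 in those kept in 1 and 0.27 in those kept in both, and the median widths were 3.15, 3.8 and 4.55 kb.

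**Figure D2:**
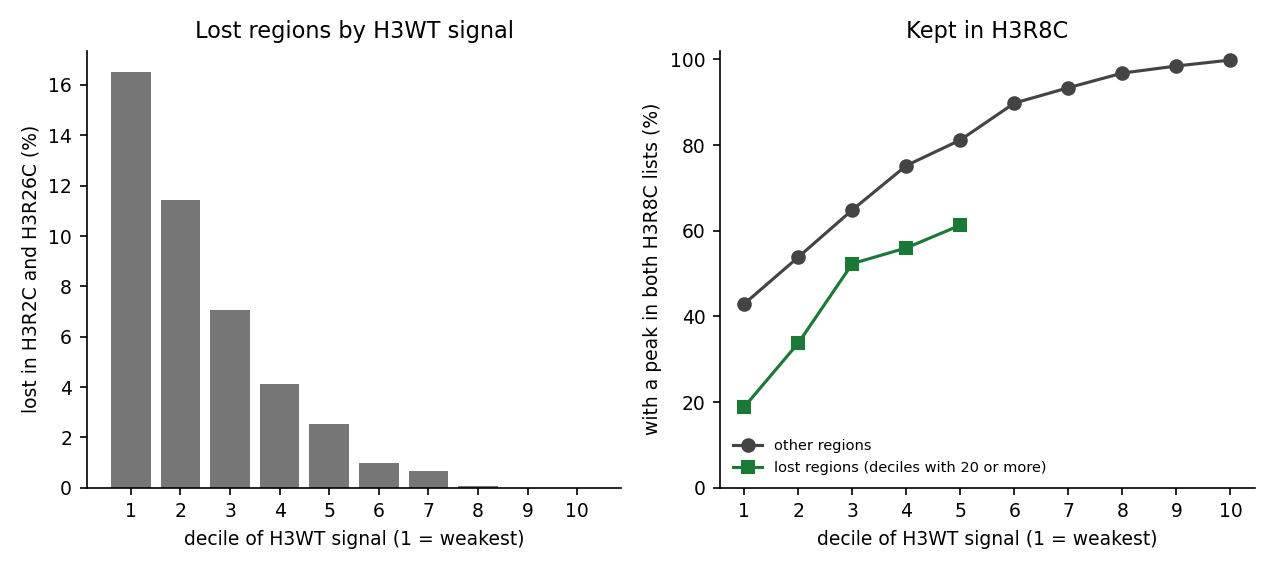
Left, percent of regions lost in H3R2C and H3R26C (y axis) in each decile of H3WT signal (x axis, 1 is the weakest), and right, percent with a peak in both H3R8C lists for lost regions (squares, deciles with 20 or more) and for other regions (circles). The lost share falls from 16.5% to 0, and in deciles 1 to 5 the squares stay below the circles.

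The 190 regions kept in both H3R8C lists were selected for passing the H3R8C calls, so their levels are a description. Their median scaled signal was 0.265 and 0.251 in the H3WT libraries and 0.261 and 0.248 in the H3R8C libraries. The 2 H3R8C values lay above both H3WT values at 33 regions (17.4%) and below both at 43 (22.6%), and they overlapped at 114. Among comparison regions kept in both H3R8C lists the 2 shares were 27.3% and 21.8%. In the limma fit over 20900 regions, the median log2 difference of H3R8C minus H3WT at these 190 regions was -0.03, and over all 528 lost regions it was -0.56.

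The same fit, with Benjamini-Hochberg adjustment, called 208 of the 528 lost regions lower in H3R8C and 0 higher, where 2.66% of all regions tested were called lower and 3.3% higher. At an unadjusted p under 0.05, 12 lost regions were higher. H3WT peaks were part of the rule, so nothing is read from this split. Of the 208 regions, 204 had no H3R8C peak and took 1 fixed value in both H3R8C libraries, which leaves little spread for the test. The 4 called regions with an H3R8C peak were the Tjp1 start site, an intergenic region near Maged2 on chromosome X, an intron of Dmrt1 and a region of chromosome 18, the first 2 of them named after their values were seen. At the start of Tjp1, which encodes the tight junction protein ZO-1, the signals were 0.344 and 0.495 in H3WT and 0.137 and 0.133 in H3R8C.

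The strongest lost regions fell into groups by their fate in H3R8C. Among those kept in both lists, the region near Gpr26, an orphan receptor gene, ran over 7.4 kb at chr7:131884001-131891400. Its H3WT signal was 0.714 in the list of replicates 1 and 2 and 0.879 in that of replicate 3 (mean 0.797 ± 0.117 SD, n = 2), and its H3R8C signal was 0.536 and 0.148. Both H3R8C values were below both H3WT values, and the 2 H3R8C libraries differed widely. GENCODE places this stretch in an intron of Fgfr2, whose longest annotated span of 2961 kb also covers Gpr26.

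B4galnt4, a glycosyltransferase gene, had a lost region of 6.9 kb over its start (chr7:141057751-141064650). H3WT signals were 0.566 and 0.963, and H3R8C signals 0.359 and 0.473. Nrg1, the gene of a ligand of ErbB receptors, had a 7.6 kb region over a start site at chr8:32878801-32886400, with 0.745 and 0.778 in H3WT and 0.199 and 0.289 in H3R8C. At both genes the H3R8C libraries lay below the H3WT libraries without overlap.

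In contrast, 4 other regions of this class had overlapping values. A 10.15 kb region of chromosome X, 7.9 kb from the start of the orphan receptor gene Gpr173, had 0.849 and 0.628 in H3WT and 0.977 and 0.813 in H3R8C. The longest lost region, 12.35 kb at chr15:84567801-84580150 over the start of the noncoding gene Gm34095, had 0.483 and 0.951 in H3WT and 0.694 and 0.706 in H3R8C. An 11 kb region between genes, nearest to the integrin gene Itga4, had 0.864 and 0.558 in H3WT and 0.351 and 1.03 in H3R8C. A second region, over an exon of Gpr173 and nearest to the start of Tspyl2, had 0.773 and 0.548 in H3WT and 0.335 and 0.65 in H3R8C. The last of the 8, between genes near Rimklb, had 0.777 and 0.47 in H3WT and lower values of 0.276 and 0.213 in H3R8C.

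Of the 8 strongest regions with no H3R8C peak, 4 lay between genes, 3 in introns and 1 at a start site. Their H3WT means ran from 0.467 to 0.557, and none had a mean as high as the 8 above, which started at 0.624. The H3WT libraries differed more at several of them, as near Igsf9b on chromosome 9 (0.868 and 0.245), near Arhgef26 on chromosome 3 (0.804 and 0.261) and at an intergenic region of chromosome 18 (0.821 and 0.264). The 2 libraries were closer at the region near Dmrt2, a DM-domain transcription factor gene on chromosome 19 (0.531 and 0.569), whose neighbour only 0.6 kb away kept a peak in all 4 mutant lists. Rxfp2, the receptor of the peptide hormone Insl3, had an intronic region with 0.62 and 0.377. The start of Insl3 itself was 0.987 kb outside another lost region, which was kept in both H3R8C lists, with mean signals of 0.201 in H3WT and 0.406 in H3R8C.

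The 4 strongest regions with a peak in 1 H3R8C list included the strongest of all 528, in the intron of Zfhx3 (10.4 kb, chr8:108140051-108150450). Its H3WT signals were 1.18 and 0.692, and its single H3R8C peak, in the list of replicates 1 and 2, had 0.421. In an intron of Dmrt1, a transcription factor gene of gonad development, H3WT signals of 0.637 and 0.882 stood against a single H3R8C peak of 0.139. A region of chromosome 18 had 0.941 and 0.573 in H3WT and a single H3R8C peak of 0.134. The region nearest to Cpa6 on chromosome 1 had 0.563 and 0.77, with a single H3R8C peak of 0.681. In 2 of these 4 the single H3R8C peak was near the lowest signals of those lists.

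**Figure D3:**
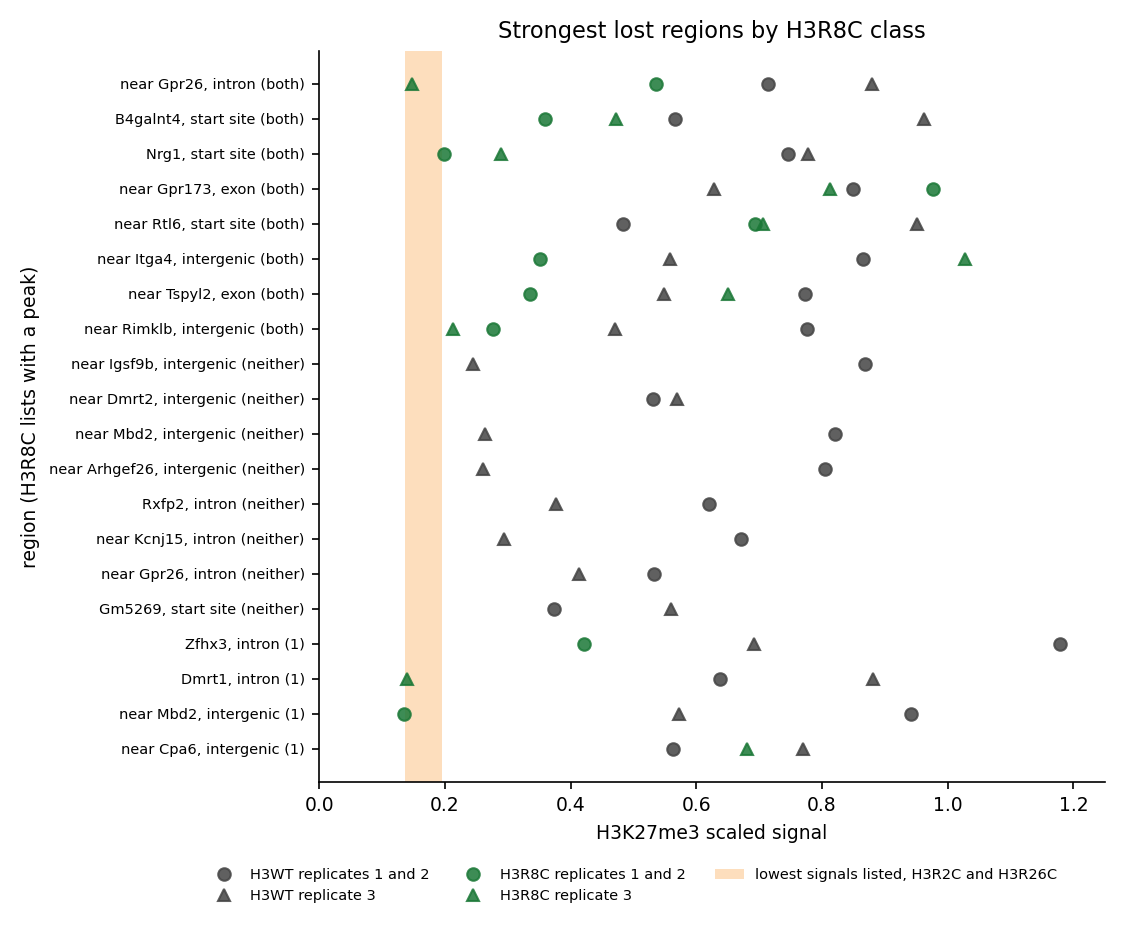
H3K27me3 scaled signal (x axis) of the strongest lost regions, named by a gene at or nearest to them (y axis) with their H3R8C class in brackets, in each H3WT (grey) and H3R8C (green) library, where no green symbol means no peak. The shaded band marks the lowest signals listed in the H3R2C and H3R26C lists, 0.136 to 0.195, and all H3WT symbols lie to its right.

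Lost regions held few gene starts. A start site within 1 kb was present at 89 of them (16.9%), against 36.2% of comparison regions, and a protein-coding start at 11.2% against 25%. A further 15.2% touched an exon, 22.0% lay in introns and 46.0% between genes, where the shares of comparison regions were 15.1%, 13.2% and 35.5%. Regions kept in both H3R8C lists had a start site at 21.6%, those kept in 1 at 12.1% and those in neither at 15.5%. The lower share moved with the signal. In the weakest decile 9.95% of lost and 16.5% of comparison regions had a start site, in the second 18% and 22.4%, in the third 23.3% and 23.7%, in the fourth 32.0% and 26.2%, and in the fifth 12.9% and 27.8%, so the gap had no fixed direction at like signal. The nearest protein-coding start was at a median of 28.1 kb from lost regions and 15.3 kb from comparison regions.

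Of 5326 genes with a start at a region of both H3WT lists, 103 (1.93%) had one at a lost region, and 63 of 2853 protein-coding genes (2.21%). In 26 gene lists, from developmental factors, signalling and lineage genes to olfactory receptors, Zfp, imprinted and housekeeping genes, 590 genes had a start at a region of both H3WT lists, and 5 of them at a lost region. None of 32 Hox genes was among them, and all 32 had a start at a region with a peak in all 4 mutant lists. The counts were 0 of 99 other homeobox genes, 0 of 13 forkhead genes and 0 of 9 T-box genes, of which 64, 9 and 6 were in all 4 mutant lists. For tissue bHLH factors the count was 1 of 31, for Wnt pathway genes 1 of 26 and for neurotransmitter receptors 1 of 40. The cartilage, bone, fat and muscle lists had 0 of 4, 0 of 1, 0 of 6 and 0 of 17, the Polycomb complex list 0 of 3 and the imprinted list 0 of 17. Overlapping genes on opposite strands share a region, and a region at a start site says nothing of the gene's expression, which was not measured here.

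Wnt1, a secreted ligand of neural patterning, was the Wnt gene. Its 4.6 kb region at chr15:98789801-98794400 had signals of 0.194 and 0.597 in H3WT and 0.536 and 0.516 in H3R8C, so that the groups overlapped. The dopamine receptor gene Drd4 (chr7:141290601-141295300) had 0.304 and 0.366 in H3WT and 0.354 and 0.367 in H3R8C. Tcf24, a bHLH factor gene, had 0.146 and 0.345 in H3WT and 0.145 and 0.148 in H3R8C. For these 3 the limma adjusted p of H3R8C against H3WT lay between 0.551 and 1. Kcnj15, an inwardly rectifying potassium channel gene, differed in that H3R8C had no peak, with 0.217 and 0.203 in H3WT.

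A few other start sites had H3WT signals that were high among lost regions, with means below the comparison region median of 0.535. Actl6b, a neuronal subunit of the BAF chromatin remodelling complex, had 0.286 and 0.644 in H3WT and 0.298 and 0.327 in H3R8C, and the GTPase gene Rem1 had 0.465 and 0.523 in H3WT and 0.277 and 0.473 in H3R8C. Syt1, the calcium sensor of synaptic vesicles, had 0.341 and 0.424 in H3WT and no H3R8C peak. At Wnk3, a kinase gene on chromosome X with one of the longest lost regions (10.4 kb), the H3WT libraries stood apart at 0.593 and 0.171, and H3R8C had 0.266 and 0.21. These 4 genes were not on the lists, and all but Wnk3 were chosen after their values were seen.

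Some lost regions lay together. When regions no more than 100 kb apart were joined, 307 of the 528 stood alone and 137 fell into 34 runs of 3 or more. At Eya1, a transcriptional coactivator of organ development, a run of 7 lost regions on chromosome 1 (chr1:14190101-14330100) had 5 inside the gene, and 6 of the 7 were with a peak in both H3R8C lists. The run held 8 regions of both H3WT lists. In contrast, the run of 5 at Kcnj15 on chromosome 16 (chr16:95190451-95296550) had no H3R8C peak at any of its regions and held every region of both H3WT lists there. A run of 8 on chromosome 18 also had no H3R8C peak, and another of 7 there had none with a peak in both. Each of these chromosome 18 stretches held 12 regions of both H3WT lists, so not all regions there were lost. The run around Gpr26 had 7 lost regions over 303.8 kb, of which 1 was kept in both H3R8C lists, 2 in 1 and 4 in neither. On chromosome 15 a run of 7 at Rtl6, a retrotransposon-derived gene, had 5 kept in both. The Gpr26 and Rtl6 stretches each held 9 regions of both H3WT lists. Regions of 1 run share their neighbourhood and are not separate observations. The nearest other region with a peak in all 4 mutant lists was at a median of 95.2 kb from lost regions and 12.75 kb from comparison regions. Comparison regions include regions of that class, which the rule bars lost regions from, and the distances were not matched for H3WT signal.

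Chromosome X contributed 140 of the 528 lost regions (26.5%), against 13.4% of all regions of both H3WT lists. Of its 1627 regions, 8.60% were lost, compared with 3.68% of the 10532 autosomal ones. Among autosomes the share ran from 1.98% on chromosome 6 to 6.28% on chromosome 1 and 8.61% on chromosome 18, where 26 of 302 regions were lost. X regions were absent from both H3R2C lists at 53.5% and from both H3R26C lists at 11.2%, and autosomal regions at 15.1% and 13.5%. A peak was present at 40.1% and 38.7% of the X regions in the H3R2C lists, and at 85.9% and 65.6% in those of H3R26C. In H3R8C the X shares were 86.7% and 84.6%. Autosomal shares in these 6 lists lay between 70.7% and 85.3%. The H3R2C lists thus stood apart on chromosome X, whereas H3R26C had similar shares on X and autosomes.

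The X share also moved with the H3WT libraries. Chromosome X held 13.4% of the total H3K27me3 signal in the H3WT list of replicates 1 and 2 and 8.32% in that of replicate 3, against 3.49% and 4.08% in H3R2C, 10.0% and 7.95% in H3R26C and 10.7% and 9.69% in H3R8C. Without the first H3WT list the X share of lost regions was 19.9%, without the second it was 47.5%, without the first H3R2C list 18.5%, and without the first H3R26C list 35.7%. The HA lists had 2.04% to 3.38% of their peaks on X, with 2.23% and 2.04% in H3R2C and 2.09% and 2.25% in H3WT. The number of X chromosomes in each line was not tested. On autosomes alone, 142 of 388 lost regions (36.6%) were kept in both H3R8C lists and 161 (41.5%) in neither, and on X 48 of 140 (34.3%) and 45 (32.1%).

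**Figure D4:**
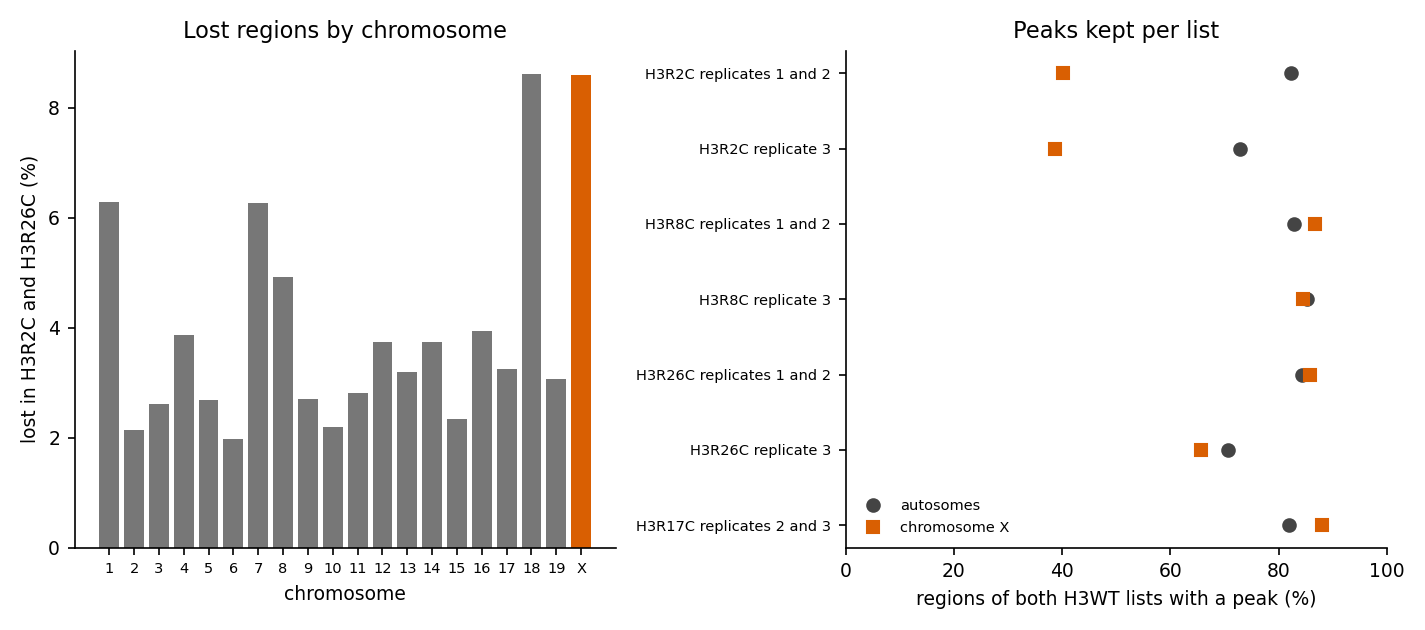
Left, percent of the regions of both H3WT lists that were lost in H3R2C and H3R26C (y axis) by chromosome (x axis), with X in orange. Right, percent of those regions with a peak in each H3K27me3 list (y axis) on autosomes (circles) and on X (squares), where X lies far below autosomes in both H3R2C lists, at 40.1% and 38.7%.

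H3R17C, which had no part in the rule, gave a further view of the lost regions. Its list of replicates 2 and 3 had a peak at 37.9% of them and at 84.8% of comparison regions. The share was 49.5% of regions kept in both H3R8C lists, 46.2% of those kept in 1 and 21.8% of those in neither. In the weakest decile of H3WT signal it was 25.4% of lost and 51.2% of comparison regions, and in the third 44.2% and 71.2%. Comparison regions were wider in both deciles, and these shares were not matched for width. The H3R17C list of replicate 1, whose labels and file name gave different antibodies, had a peak at 2.08% of lost and 1.80% of comparison regions and was not used further.

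Anti-HA peaks, independent of the rule, were sparse at the lost regions in every genotype. Of the 528 regions, 162 (30.7%) were overlapped by an HA peak in at least 1 of 8 lists, against 48.5% of comparison regions. In H3WT the shares were 13.8% and 12.3% of lost regions, in H3R8C 8.90% and 8.52%, in H3R2C 10.0% and 10.6%, and in H3R26C 7.77% and 7.01%. Comparison regions had 16.5% and 18.8% in H3WT, 16.9% and 14.2% in H3R8C, 23.1% and 26% in H3R2C, and 15.0% and 15.6% in H3R26C. All 8 libraries thus had a lower share at lost than at comparison regions, which were wider and so had more room for an overlap. As the percent of length covered by HA peaks, the difference of lost minus comparison regions was between -2.89 and -0.0871 points in 7 libraries and 0.286 in the replicate 3 library of H3R8C. In the weakest decile of H3WT signal 24.4% of lost and 34.8% of comparison regions had any HA peak, and in the second 29.5% and 35.1%. In the third decile the shares were 36.0% and 37.9%, in the fourth 32.0% and 38.3%, and in the fifth 51.6% and 41.0%. The H3WT list of replicates 1 and 2 stood apart, with 15344 HA peaks of a median 10.7 kb, where the other 7 lists had 37907 to 51114 peaks of 0.8 to 2.65 kb.

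The HA share at lost regions averaged 8.85% ± 1.74 (SD, n = 4) in the H3R2C and H3R26C libraries and 10.9% ± 2.59 (SD, n = 4) in those of H3WT and H3R8C, a difference of -2.04 percentage points (exact permutation test over libraries, two-sided, p = 0.257). When each library was set against its own comparison regions, the share at lost regions was lower by 11.1 points on average (mean -11.1 ± 3.82 SD, n = 4) in the first pair and by a mean of -5.68 ± 2.24 (SD, n = 4) in the second, a difference of -5.40 points (exact permutation test, two-sided, p = 0.0571). With 4 libraries against 4 the smallest p possible is 0.0286, and 2 against 2 could not pass the threshold. Each set of 4 libraries came from 2 genotypes, and the test treated libraries of 1 genotype as separate. The SDs and p-values therefore do not measure the spread between genotypes. Neither difference passed 0.05, and the 2 p-values were not adjusted for each other. The second difference moved with H3R2C, where the values were -13.1 and -15.4 points, while H3R26C had -7.27 and -8.55, H3R8C -7.96 and -5.68, and H3WT -2.63 and -6.46. Without the wide H3WT list the first difference was -1.06 points.

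**Figure D5:**
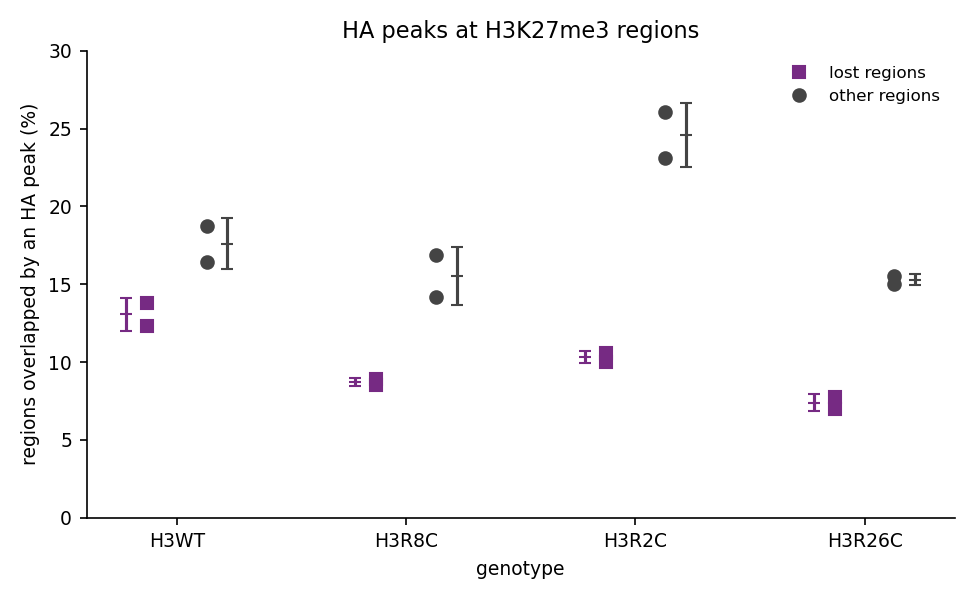
Percent of lost regions (squares) and other regions of both H3WT lists (circles) overlapped by an HA peak (y axis) in each library, by genotype (x axis), with bars for the mean and SD of the 2 libraries. Squares lie below circles in all 8 libraries, and the widest gap is in H3R2C.

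HA peaks at lost regions rarely recurred. Of the 162 regions, 70 had a peak in 1 list, and 5 (0.947% of the 528) had one in all 8, compared with 3.86% of comparison regions. Of these 5 regions, the starts of B4galnt4, Wnt1 and Tmem8 were 3, and a region in Meioc and one near 4930447C04Rik were the others, named after their values were seen. Regions kept in both H3R8C lists had an HA peak in no list at 59.5%, those kept in 1 at 73.5% and those in neither at 75.7%. On chromosome X 14.3% of lost regions had any HA peak, and on autosomes 36.6%, while X and autosomal comparison regions had 25.2% and 51.9%.

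The HA signal was tested with limma over 5382 regions with an HA peak in at least 2 lists, of which 92 were lost regions. For H3R2C against H3WT, 1 of the 92 was called lower and 0 higher, where 1.17% of all regions tested were called lower and 4.78% higher. At an unadjusted p under 0.05 the counts were 5 lower and 5 higher. The called region, named after its values were seen, lay at the starts of Pex11a, a peroxisome gene, and Wdr93. It had an HA peak in 2 of the 8 lists and the same fitted difference in H3R2C and H3R26C, so that its size depends on the pseudocount and no value is drawn from it. The call was lost in each fit that left out an HA library. Such a fit has 1 library in a group, so the loss is not read as particular to this region. For H3R26C against H3WT, limma called 0 of the 92 in either direction, and 0% of all regions, with 13 lower and 4 higher at an unadjusted p under 0.05. The median log2 difference at lost regions was -0.36 in H3R2C, beside 0.02 over all regions tested, and -0.29 in H3R26C, beside -0.06. Both comparisons share the H3WT libraries, and the medians without the wide H3WT list were -0.29 and -0.20. They depended on the pseudocount, with -0.67 and -0.86 at 0.05 and -0.11 and -0.11 at 1. With the upper 50% of peaks they were -0.24 in H3R2C and -0.05 in H3R26C, the latter beside -0.05 over all regions.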

How the data were processed

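Anti-H3K27me3 and anti-HA peak lists of H3WT, H3R2C, H3R8C and H3R26C were analysed, with the H3R17C anti-H3K27me3 lists as a further readout. IgG, anti-H3K4me3 and H3R17C anti-HA samples were not analysed here. By their methods, the authors used Rsubread to align reads to mm10. Peaks came from SEACR (1.3 in the submitters' processing notes), run in stringent mode at 0.01, with 1 list per sample. The deposited lists give the total and maximum signal of each peak as coverage not scaled for depth, so a weak block can be called in 1 library and missed in another. The lists give no read depth; read totals in the study's reporting summary were not used here. The study's own model of read counts was not repeated, because the files hold signal.

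Identical lists were counted once. Peaks that overlapped or touched were merged, and a peak over at least 1 bp called a region. Signal was scaled to the median of regions called in all 8 lists. After log2(scaled signal + 0.25), limma 3.58.1 (R 4.3.3; lmFit, eBayes with trend) was fitted to the 4 genotypes over regions called in both lists of at least 1 genotype, with Benjamini-Hochberg adjustment over all regions of the fit and a threshold of 0.05; a region without a peak took a signal of 0. HA signal was the total of each HA peak times its share inside the region. The fits were tested on simulated data built from regions with signal in every library. That test does not cover regions without a peak in some lists, such as the lost regions. HA shares were compared by exact permutation over libraries (70 arrangements). Annotation was GENCODE vM21 for GRCm38, and a start site meant 1 kb on either side.

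Regions were named by rule as the 8, 4 and 8 with the highest H3WT signal among those with a peak in both, 1 and neither H3R8C list, the 5 longest, the 3 weakest relative to their list, and the 3 just outside. Genes on the lists with a start at a lost region were also named, except for a result that is not reported here. The regions, lists and tests were chosen with earlier results of these data known. Alternatives covered peak thresholds, overlap, merging, scaling, pseudocounts, filters, maximum signal, the replicate number as a block, autosomes alone and leaving out each library.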

Additional observations from a re-analysis of the deposited data

Results flagged for a closer look

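The H3R17C list of replicates 2 and 3, which the rule did not use, had a peak at 37.9% of the regions lost in H3R2C and H3R26C, beside 84.8% of comparison regions. It was marked for a closer look because it is a signal in lists outside the main comparison. The difference between the shares was not tested.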

How the results depend on the processing

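The number and make-up of the lost regions depended on several choices, and the values of comparison regions moved too. In each setting lost regions had lower H3R8C, H3R17C and start site shares than comparison regions. They also had a higher X share, a smaller width and a lower H3WT signal. For example, 16.6% of lost and 71.1% of comparison regions were kept in H3R8C without the replicate 3 list of H3WT. These contrasts were not tested. With the upper 50% of peaks of each list there were 298 lost regions, with a start site share of 21.8%, an X share of 18.1%, an H3R17C share of 45.6%, a median width of 5.6 kb and a median H3WT signal of 0.294. When all 3 labelled replicates voted by majority, which lets the identical lists of replicates 1 and 2 decide, there were 2607, with 31.7% kept in both H3R8C lists, a start site share of 12.8%, an X share of 45.7%, an H3R17C share of 28.8%, a width of 2.7 kb and a signal of 0.104. With a 50% overlap, 30.3% were kept in both H3R8C lists, 55.0% had an H3R17C peak, 23.1% had a start site, the width was 4.425 kb and the signal 0.16. Merging within 1 kb gave 4.1 kb and 0.204, equal numbers of top peaks gave 3.875 kb, and autosomes alone gave 3.625 kb and an H3R17C share of 32.7%.

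Leaving out 1 H3K27me3 library at a time gave 538 to 2265 lost regions, 16.6% to 51.0% kept in H3R8C, an H3R17C share of 22.7% to 50.3%, a start site share of 12.4% to 17.5%, an X share of 18.5% to 47.5%, a width of 2.5 to 4.0 kb and an H3WT signal of 0.19 to 0.254. The kept share was lowest without the replicate 3 list of H3WT and highest without the replicate 3 list of H3R8C, where a single H3R8C list had to hold a peak. Without the first H3WT list, of replicates 1 and 2, there were 1399 lost regions, with 21.4% kept, an X share of 19.9% and a width of 2.6 kb, and 803 regions called in either direction in H3R8C, 800 of them lower. Without the replicate 3 list of H3WT the H3R17C share was 26.8%. Without the first H3R2C list there were 805 and a signal of 0.242, and without the first H3R26C list 1154, with 43.9% kept and an X share of 35.7%. Without the first H3R8C list, 46.8% were kept, with a width of 3.575 kb and a signal of 0.23. When only replicate 3 lists were left out, the values spanned 555 to 2265 lost regions, an H3R17C share of 26.8% to 39.2%, a start site share of 12.4% to 16.9%, an X share of 25.1% to 47.5%, a width of 2.5 to 3.75 kb and a signal of up to 0.25.

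The number of lost regions that limma called in either direction in H3R8C was 0 with a low-signal filter, under which few of them were tested, 128 (127 lower) with the upper 50% of peaks, and 194 to 1470 (194 to 1458 lower) when a library was left out. For the HA signal of H3R2C, the single call became 2 of 92 with a pseudocount of 0.05 and 6 of 92 with the maximum signal. Of all regions tested, 8.44% and 9.59% were called there. The single call became 0 with a pseudocount of 1, the signal as deposited, the replicate block or the upper 50% of peaks. In these fits 0% of all regions were called. A low-signal filter gave 0 of 20, beside 0.529% of all regions. Leaving out 1 HA library gave a median log2 difference at lost regions of -0.44 to -0.20. For H3R26C the maximum signal gave 6 calls of 92, 5 of them lower, beside 2.56% of all regions. Using the signal as deposited moved the median HA difference over all regions to -0.81 for H3R2C and -0.95 for H3R26C, with -1.12 and -1.22 at lost regions. Other causes of these changes were not tested.

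In 24 alternatives neither HA share difference had a p under 0.05, which the replicate block and the fits without an HA library could not reach. The p-values lay between 0.143 and 0.657 for the share and between 0.0571 and 0.743 for the share minus comparison regions. Leaving out an H3K27me3 library gave differences of -2.39 to -0.353 and of -5.68 to -3.32 points, and leaving out an HA library gave -2.83 to -1.06 and -6.67 to -3.95.

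Deviations of same-numbered libraries correlated between 0.0014 and 0.158, so the numbers were not taken as pairs. With replicate number as a block, the permutation p-values of the 2 HA differences (-2.04 and -5.40 points) were 0.278 and 0.111 over 36 arrangements. With this block, limma called 201 of 528 lost regions lower in H3R8C, beside 5.07% of all regions called in either direction. For the HA signal of H3R2C or H3R26C, 0% of all regions were called.

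Each group had 2 independent libraries and the lists give no depth, so a peak missing from a list shows only that the signal did not pass the level of that list.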
